A study of Mus musculus with 2 samples.

Results

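The genes described here are Hnf4a, Hnf4g, Onecut1, Nr1h4 and Nr5a2, 5 transcription factor genes of the hepatocyte network, in visceral endoderm and the other tissues of the gastrulating mouse embryo. They were taken by symbol from the 32285 genes of the data, together with the accessibility peaks within 50 kb of their listed transcription starts, which gave 79 of the 229480 peaks. Hnf4a had 21 of these peaks, Nr5a2 20, Onecut1 18, Nr1h4 15 and Hnf4g 5. Of the 5 genes, Hnf4a and Nr1h4 had RNA and promoter accessibility that were several-fold higher in visceral endoderm-like nuclei. Nr5a2 RNA was not higher there, although the peak at its upstream start was more accessible. Onecut1 RNA passed 2-fold only under some processing choices, and Hnf4g RNA was too sparse to compare.

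The study measured nuclear RNA and open chromatin in the same nuclei (a single-nucleus multiome) from pooled mouse embryos at embryonic day 7.0, with no treatment or genotype contrast. There was 1 library per assay, so every comparison below is between groups of nuclei of 1 pool, with no replicate and no test. The labels conflict: title, age and protocol give E7.0 embryos, whereas the tissue, cell type and strain entries name sections of the gut, goblet cells and RedMUC298trTg. The embryonic reading was followed, and the marker genes below bear on it.

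Visceral endoderm is the epithelium that wraps the early embryo, takes up maternal nutrients and secretes plasma proteins and lipoproteins before the liver exists. It uses much of the transcription factor network of the later hepatocyte: Hnf4a and Hnf4g encode nuclear receptors that bind the same DNA element, and Onecut1 encodes HNF6, a cut-homeodomain factor. Nr1h4 encodes FXR, the bile acid receptor, and Nr5a2 encodes LRH-1, a nuclear receptor of liver and gut that is also made in the epiblast. Hnf4a is known to be transcribed from the promoter P1 and from the promoter P2 far upstream of it.

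All 15341 barcodes carried both assays, and 12796 were kept as nuclei, with medians of 10471 RNA molecules (UMIs) and 17350 peak counts. RNA clustering, made without the 5 genes, gave 17 clusters, and classes were named "-like" from marker lists. The visceral endoderm-like class held 1813 nuclei in 3 clusters. All 10 markers of its list (such as Ttr, Afp and Cubn) were at least 2-fold higher there than in all other nuclei, with a summed level of 12112 against 1180 CPM (counts scaled to the total of the group). The goblet and intestinal list of 8 genes was at 102 CPM in the class and 17.3 CPM elsewhere, with 3 of its genes at least 2-fold higher in the class. In the 3 visceral clusters described next, 1, 2 and 5 of its genes were at 0. Tff3 was at 0 in each of them, while Muc2, the main goblet mucin, was detected in the first 2. The largest visceral cluster (1042 nuclei, led by Bmp6, Abcc2 and A1cf) is called the Bmp6 cluster. The next (535 nuclei, led by 6330411D24Rik, Arid3c and Kynu) is called the Kynu cluster, and the smallest (236 nuclei, led by Icam1, Fabp1 and Ihh) the Fabp1 cluster. A further cluster of 408 nuclei, led by 6030498E09Rik, Fzd5, Gckr and Sfrp5, could not be named. Its leading marker list was that of anterior streak, node and definitive endoderm (860 CPM, against 127, 274 and 185 CPM in the Bmp6, Kynu and Fabp1 clusters). It had the highest level of these 4 clusters for the anterior and embryonic visceral endoderm list (2605 CPM, against 114, 680 and 190 CPM in the Bmp6, Kynu and Fabp1 clusters) and the lowest for the absorptive list (1982 CPM, against 13151, 10515 and 6403 CPM). It is called the Sfrp5 cluster and counted among the other nuclei.

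Of the promoters that were more open in visceral endoderm-like nuclei, 4 are printed here because the results below turn on them. Each runs from 250 bases before to 50 bases after a RefSeq start (assembly GRCm38.p6, that is mm10), in the direction of transcription, in lower case. Capitals mark matches, on either strand, to the motif of the GATA factors (letters AGATAA) or to that of the ONECUT factors (letters ATTGATT). Hnf4a P1, on the plus strand at chr2:163546905-163547204, held no match. The upstream Hnf4a promoter (plus strand, chr2:163506607-163506906), a start that RefSeq lists for Hnf4a far upstream of P1, held an ONECUT match on the reverse strand 60 bases before the start and a GATA match 52 bases before it. The upstream Nr5a2 promoter (minus strand, chr1:136960399-136960698) held GATA matches on the reverse strand 217 and 200 bases before the start. The downstream Nr1h4 promoter (minus strand, chr10:89506609-89506908) held 1 such match, 131 bases before the start.
Hnf4a P1: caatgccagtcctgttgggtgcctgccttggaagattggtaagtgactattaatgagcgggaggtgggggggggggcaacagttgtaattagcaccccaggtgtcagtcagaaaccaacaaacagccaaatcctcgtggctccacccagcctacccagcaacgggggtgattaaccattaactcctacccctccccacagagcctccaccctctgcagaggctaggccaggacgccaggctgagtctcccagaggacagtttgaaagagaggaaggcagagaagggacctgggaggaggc
Hnf4a upstream promoter: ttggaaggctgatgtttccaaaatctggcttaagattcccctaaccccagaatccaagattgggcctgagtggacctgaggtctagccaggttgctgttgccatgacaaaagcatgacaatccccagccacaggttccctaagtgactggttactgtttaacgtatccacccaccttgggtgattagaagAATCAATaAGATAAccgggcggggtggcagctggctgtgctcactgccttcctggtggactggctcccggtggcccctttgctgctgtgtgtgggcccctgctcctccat
Nr5a2 upstream promoter: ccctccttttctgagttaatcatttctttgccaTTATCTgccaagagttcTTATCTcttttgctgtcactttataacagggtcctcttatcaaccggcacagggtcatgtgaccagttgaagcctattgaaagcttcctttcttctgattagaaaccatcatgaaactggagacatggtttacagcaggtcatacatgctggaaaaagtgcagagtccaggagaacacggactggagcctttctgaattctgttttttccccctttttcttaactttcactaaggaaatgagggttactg
Nr1h4 downstream promoter: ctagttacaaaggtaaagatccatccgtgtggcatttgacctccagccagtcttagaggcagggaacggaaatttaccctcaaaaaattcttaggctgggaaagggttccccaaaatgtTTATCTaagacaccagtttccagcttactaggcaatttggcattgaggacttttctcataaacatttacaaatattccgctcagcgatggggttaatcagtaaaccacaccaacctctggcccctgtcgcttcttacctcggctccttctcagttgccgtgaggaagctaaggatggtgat
Among 32851 RefSeq promoters of this length, 11.2% held AGATAA and 2.86% ATTGATT. On either strand, none of these 4 sequences held CAAAGTCCA (the HNF4 motif, found in 0.475% of promoters), CAAGGTCA (the NR5A2 motif, in 1.56%) or TGTTTAC (the FOXA motif, in 3.65%). The palindromic NR1H4 motif, in 0.00913% of promoters, was also not found. GC content was 57.3% in Hnf4a P1, 54.0% in its upstream promoter, 42.0% in that of Nr5a2 and 45.7% in that of Nr1h4. The Onecut1 promoter, which was about equally open in all classes, had 73.0%.

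Hnf4a RNA was 11.9-fold higher in visceral endoderm-like than in all other nuclei. The gene (ENSMUSG00000017950, plus strand, chr2:163506811-163572907 in RefSeq) had 3830 UMIs in the kept nuclei. Visceral endoderm-like nuclei held 2719 of them, or 109 CPM (95% Poisson interval 105 to 114), and the other 10983 nuclei held 1111, or 9.19 CPM (8.66 to 9.75). The exact conditional interval of the fold was 11.1 to 12.8. This interval and all others cover counting error only. A level is called higher here when the fold reaches 2 on at least 50 summed counts, and 10.7% of 17686 genes were called higher in visceral endoderm-like nuclei.

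**Figure D1:**
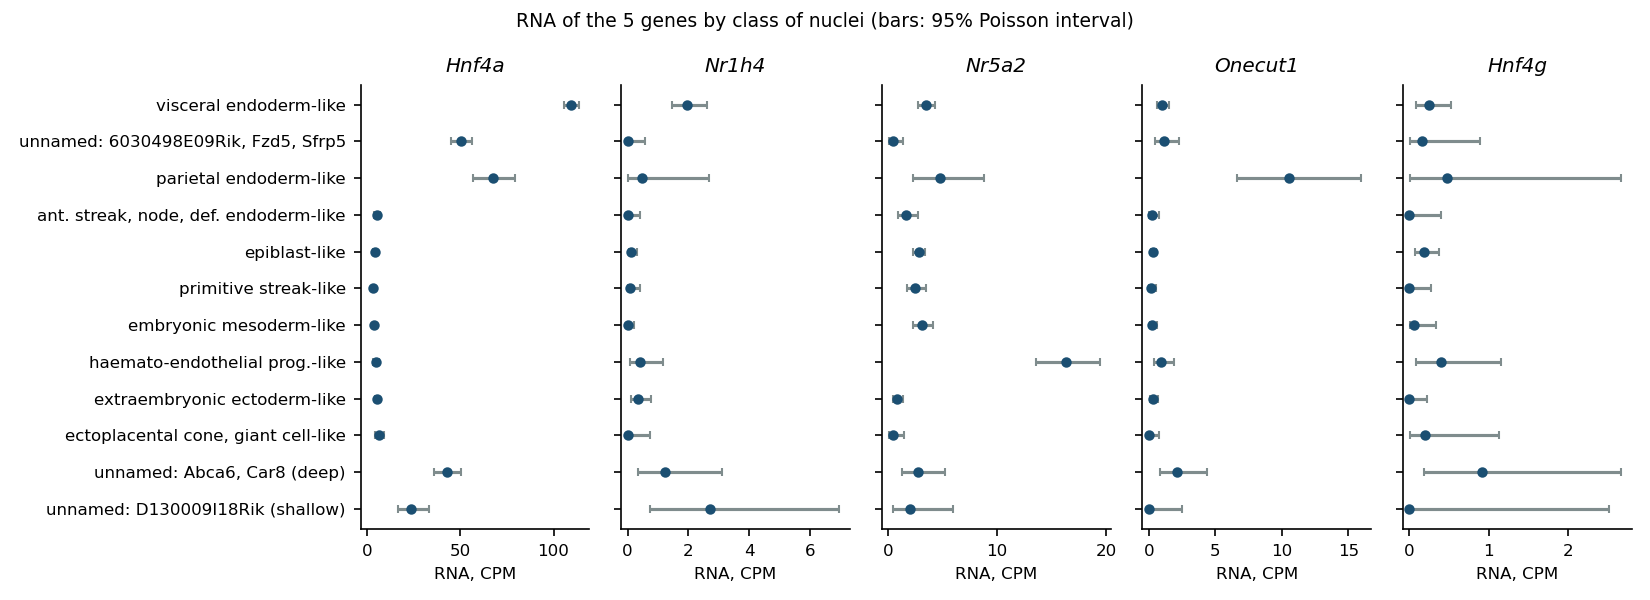
RNA of each gene in CPM (horizontal axis, one scale per gene) in 12 groups of nuclei, with points for summed counts and bars for the 95% Poisson interval. Hnf4a is highest in visceral endoderm-like nuclei (109 CPM), Nr5a2 in haemato-endothelial progenitor-like nuclei (16.3 CPM) and Onecut1 in parietal endoderm-like nuclei (10.5 CPM). The parietal endoderm-like class mixed parietal and visceral markers.

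The remaining Hnf4a RNA lay mostly in endodermal or unnamed clusters. Parietal endoderm-like nuclei, named from markers of the tissue that lays down the basement membrane of the outer yolk sac, had 141 UMIs in 162 nuclei, or 67.5 CPM (56.8 to 79.6). By accessibility, 112 and 21 of these UMIs lay in nuclei of 2 clusters led by Bmp6 or Gm13270, whose visceral list was at 6645 and 5473 CPM, and the 26 nuclei of a cluster led by Lama1 and Thbd had 8 UMIs, or 23.7 CPM. The Sfrp5 cluster had 315 UMIs, or 50.3 CPM (44.9 to 56.2), which was 2.18-fold lower than the visceral class (interval 1.93 to 2.45). The unnamed deep cluster led by Abca6 and Car8 (113 nuclei, median 24831 UMIs) had 42.7 CPM, and the unnamed shallow cluster led by D130009I18Rik (771 nuclei, median 1757 UMIs) had 23.8 CPM. Beside the unusual depth of these clusters, their visceral lists were at 5866 and 3636 CPM, and the part of remaining doublets or free RNA in them was not tested. The order ran from the visceral class through the parietal class to the Sfrp5 cluster, each step with an interval above 1, although the 26 nuclei led by Lama1 were below the Sfrp5 cluster, while the Sfrp5 and Abca6 clusters did not differ beyond counting error (1.18-fold, 0.962 to 1.45).

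In the 7 other classes Hnf4a was low. It ran from 3.40 CPM in primitive streak-like nuclei (2.50 to 4.52) to 6.67 CPM in ectoplacental cone and giant cell-like nuclei (4.59 to 9.36). These ends had intervals that did not overlap, while no neighbours in the order differed beyond counting error. Beside these levels, the visceral endoderm list itself stood at 649 to 784 CPM in the same classes. Hnf4a UMIs per 1000 UMIs of that list were 5.23 to 8.51 there and 9.04 in the visceral class. With every nucleus thinned to 5000 UMIs, 41.4% of visceral endoderm-like nuclei (exact binomial interval 39.1 to 43.8) and 2.18% of epiblast-like nuclei (1.72 to 2.73) had an Hnf4a UMI. Unthinned, the shares were 67.8% at a median of 12508 UMIs and 3.96% at 9789 UMIs. Thinning left out 81 visceral and 396 epiblast nuclei that were too shallow. The part of free RNA in the epiblast share was not tested.

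Within the visceral class, Hnf4a RNA was nearly even. The Bmp6 cluster held 1599 UMIs (111 CPM), the Kynu cluster 907 (113 CPM) and the Fabp1 cluster 213 (89.4 CPM). The first pair did not differ beyond counting error (0.974-fold, 0.897 to 1.06). The Bmp6 cluster was 1.24-fold above the Fabp1 cluster (1.07 to 1.43), which was also the shallowest, with a median of 8630 UMIs against 12569 and 13970. Leaving the 3 unnamed clusters out of the comparison raised the visceral fold of Hnf4a from 11.9 to 19.4, and setting the class against epiblast-like nuclei alone gave 26.8. Clusters of accessibility named by the same rule, which kept 891 nuclei, gave 5.22. They left a further 1068 nuclei, in an unnamed cluster led by the visceral endoderm list, among the others, and with these counted in the class (1959 nuclei) the fold was 11.9.

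The chromatin around Hnf4a was open across a wide stretch in the same class. Of its 21 peaks, 14 were at least 2-fold more accessible in visceral endoderm-like nuclei, none was 2-fold less accessible, and the median fold was 6.19. Of all 229253 peaks with at least 50 counts, 12.7% were called more and 40.7% less accessible, with a median fold of 0.625. The classes come from RNA, so accessibility played no part in them. In the RefSeq table, 17 of the 21 peaks lay inside the Hnf4a gene span, although 13 of the 21 had the listed start of another gene as the nearest (R3hdml, Hnf4aos or Ttpal).

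The peak at P1 (chr2:163546586-163547476) had 963 counts, or 30.3 CPM of all peak counts, in visceral endoderm-like nuclei and 694, or 3.54 CPM, in the others, which is 8.55-fold (7.46 to 9.81). This fold was 3.74 with clusters of accessibility (8.40 with all of those led by the visceral list), 13.6 without the unnamed clusters and 33.6 against epiblast-like nuclei alone. Among promoter windows, which reach 1000 bases to each side of a start, 4.56% of 22207 genes were called more accessible. The peak at the upstream promoter, 40.4 kb away (chr2:163506342-163507234), was 9.61-fold more accessible (8.04 to 11.5), with 19.7 against 2.05 CPM. Both Hnf4a promoters were thus open in the class, and RNA counted per gene does not separate their transcripts.

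The highest folds lay between and beyond the promoters. A peak 13.3 kb inside the gene (chr2:163560115-163560935) was 27.8-fold more accessible (22.9 to 33.9), at 34.1 against 1.23 CPM. A peak 6.4 kb upstream of P1 (chr2:163540404-163541221) was 19.97-fold more accessible (17.3 to 23.2) and the most accessible of the 79 peaks in the class, at 45.7 CPM. Its neighbour 5.2 kb upstream (chr2:163541566-163542386) was 16.8-fold more accessible (14.6 to 19.4). Over the 17 RNA clusters the log accessibility of these 3 peaks had Pearson correlations of 0.93, 0.97 and 0.96 with log Hnf4a RNA, given as a description since the clusters share a library. The peaks were picked for high folds in the class where Hnf4a RNA was also high. That choice favours high correlations, so nothing is read from them.

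**Figure D2:**
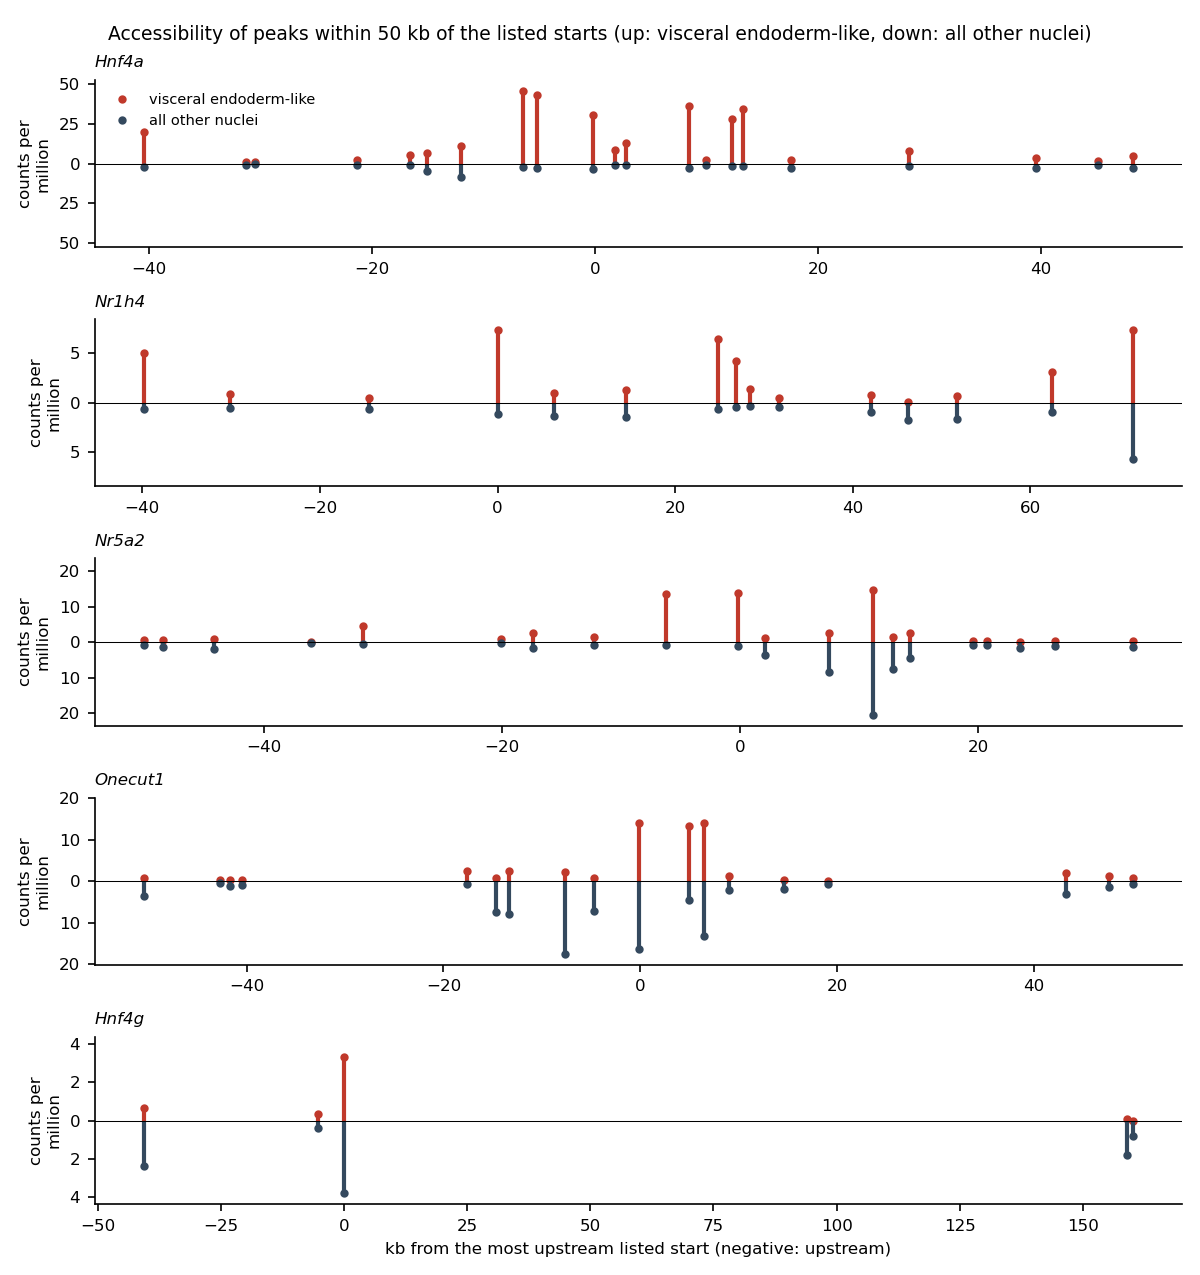
Accessibility in CPM (vertical axis, visceral endoderm-like nuclei upward and all other nuclei downward) of every peak within 50 kb of a listed start, against the distance in kb from the most upstream listed start of the gene. Hnf4a has tall upward lines over its gene, the tallest at 45.7 CPM, and Onecut1 has its tallest downward line 7.7 kb upstream. Nr5a2 has upward lines at both listed starts, and the downward line is short at the upstream one only.

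The Sfrp5 cluster opened the Hnf4a promoters but not all of the other peaks. At P1 it had 195 counts, or 26.7 CPM, which is 0.884 times the visceral level (0.709 to 1.09). At the upstream promoter it had 17.6 CPM, or 0.891 times (0.672 to 1.17). At the peak 13.3 kb inside the gene it had 14 counts, or 1.92 CPM, which is 0.0563 times the visceral level (0.0242 to 0.112). The peak 6.4 kb upstream was at 0.168 times (0.113 to 0.241) and the peak 5.2 kb upstream at 0.425 times (0.327 to 0.545). So 2 promoter peaks did not differ beyond counting error between the groups while 9 of the 14 peaks were at least 2-fold lower in the Sfrp5 cluster, 7 of them with an interval below 1. Of the 26 peaks of the 5 genes that were more accessible in the visceral class, 18 (69.2%) were at least 2-fold lower there, 16 of them with an interval below 1, beside 54.4% of all such peaks by fold alone. The Sfrp5 nuclei were among the others when peaks were called, which favours a lower level in them, and nothing is read from these counts.

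**Figure D3:**
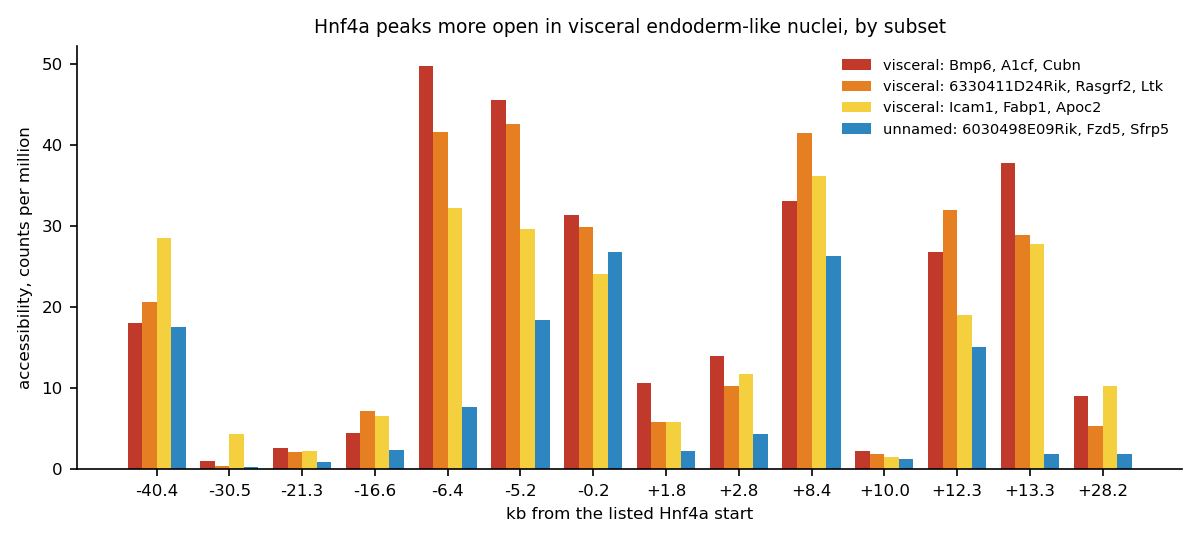
Accessibility in CPM (bars) of the 14 Hnf4a peaks that were at least 2-fold more open in visceral endoderm-like nuclei, by distance in kb from the listed start, in the 3 visceral clusters and the unnamed Sfrp5 cluster. At the promoter peaks the Sfrp5 cluster (17.6 and 26.7 CPM) is close to the visceral class as a whole, although the Fabp1 cluster reaches 28.5 CPM at the upstream one. As a ratio, the Sfrp5 cluster is farthest below the visceral class at the peak 13.3 kb downstream (0.0563 times, 1.92 CPM).

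Between the highest and the lowest of the 3 visceral clusters, 8 of the 14 Hnf4a peaks had an interval that excluded 1, and 1 of these reached 2-fold. The clusters compared were picked for each peak by its levels, which these intervals do not cover. Of all 29067 peaks that were more accessible in the class, 51.0% had such an interval and 39.2% also reached 2-fold. The Hnf4a peak that did was a weak peak 30.5 kb upstream, at 4.38 CPM in the Fabp1 cluster and 0.405 in the Kynu cluster. The upstream promoter was highest in the Fabp1 cluster (28.5 CPM, against 18 in the Bmp6 cluster, 1.58-fold, 1.09 to 2.25). The peaks 6.4 and 5.2 kb upstream were lowest there, at 32.2 and 29.6 CPM against 49.7 and 45.5 in the Bmp6 cluster.

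The antisense RNA Hnf4aos starts at chr2:163541720, inside the peak 5.2 kb upstream. It had 1881 UMIs in the visceral class (75.7 CPM) and 449 in the others (3.72 CPM). Its level was 77.2 CPM in the Bmp6 cluster, 91.5 in the Kynu cluster, 14.3 in the Fabp1 cluster and 9.75 in the Sfrp5 cluster, so it was far lower in the Fabp1 cluster while Hnf4a RNA was near the level of the other 2. Unlike Hnf4a, Hnf4aos could enter the clustering that made these clusters, so its differences between them are given as a description only. The strand setting of the count was not given in the sources used here, so reads of Hnf4a and Hnf4aos might not be fully separated.

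Nr1h4, the bile acid receptor gene (ENSMUSG00000047638, minus strand, chr10:89454234-89533645), was also higher in the visceral class, on a low count. Visceral endoderm-like nuclei held 49 of its 73 UMIs, in 43 nuclei, or 1.97 CPM (1.46 to 2.61), and the others held 24, or 0.199 CPM, which is 9.93-fold (5.98 to 16.9). Named classes outside the visceral class had between 0 and 0.478 CPM. The unnamed D130009I18Rik and Abca6 clusters, with 4 UMIs each, had 2.72 CPM (0.742 to 6.98) and 1.22 CPM (0.333 to 3.12) and did not differ from the visceral class beyond counting error. The Sfrp5 cluster had 0 UMIs in 408 nuclei, which allows a level of up to 0.479 CPM. Averaging over nuclei in place of summing gave a fold of 6.26, setting the class against epiblast-like nuclei alone 15.4, and clusters of accessibility gave 5.07, or 12.3 with all 1959 nuclei of those led by the visceral list.

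The promoter windows of Nr1h4 were 7.67-fold more accessible in the visceral class (6.23 to 9.44), and 3.27-fold with clusters of accessibility (8.53-fold with all of those led by the visceral list). At the downstream start (chr10:89506271-89507144) the levels were 4.21 and 0.387 CPM (10.9-fold, 7.26 to 16.5). At the upstream start (chr10:89533139-89533898) they were 7.32 and 1.12 CPM (6.56-fold, 5.12 to 8.39). A peak 2.1 kb upstream of the downstream start (chr10:89508301-89509178) was 9.95-fold more accessible (7.27 to 13.7), and a peak 39.8 kb upstream of the upstream start (chr10:89572934-89573737), nearest to Slc17a8, 7.89-fold (5.71 to 11). In all, 6 of 15 Nr1h4 peaks were more and 2 less accessible in the class, beside 12.7% and 40.7% of all peaks.

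Of the 6 more accessible Nr1h4 peaks, 5 had an interval of the highest over the lowest visceral cluster that excluded 1, 4 of them at least 2-fold. Over all such peaks the shares were the 51.0% and 39.2% given above, and the clusters were again picked for each peak by its levels. The downstream start peak had 5.72 CPM in the Bmp6 cluster, 1.62 in the Kynu cluster and 2.92 in the Fabp1 cluster. The peak 2.1 kb upstream of it had 8.79, 3.04 and 2.19 CPM. The Sfrp5 cluster had 0 counts at the downstream start, where 3 counts would be 0.411 CPM. The widest difference went another way: a peak 35.5 kb past the downstream start (chr10:89470701-89471607), nearest to Gas2l3, was highest in the Fabp1 cluster (6.58 CPM, against 3.64 in the Bmp6 and 1.21 in the Kynu cluster; 5.41-fold, 1.72 to 18.5). RNA was highest in the Bmp6 cluster, with 35 UMIs (2.42 CPM), against 12 (1.5 CPM) in the Kynu cluster and 2 (0.839 CPM) in the Fabp1 cluster, but the interval of the widest RNA fold included 1 (2.88-fold, 0.741 to 24.7).

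Nr5a2 RNA was not higher in visceral endoderm, although its upstream promoter was open there (ENSMUSG00000026398, minus strand, chr1:136842562-136960448). The visceral class held 86 UMIs, or 3.46 CPM (2.77 to 4.28), and the others 374, or 3.09 CPM (2.79 to 3.43), which is 1.12-fold (0.874 to 1.42). The class with the most Nr5a2 RNA was haemato-endothelial progenitor-like, with 123 UMIs in 73 of 706 nuclei, or 16.3 CPM (13.5 to 19.4). It stood 6.68-fold above all other nuclei (5.39 to 8.23). Its name came from markers of the mesoderm that forms blood and vessels (mean log2 fold 3.13), but extraembryonic mesoderm markers were second (1.24). At a Leiden resolution of 2, 236 haemato-endothelial progenitor-like and 468 extraembryonic mesoderm-like nuclei formed separate clusters. Which of these parts held the Nr5a2 RNA was not tested. Parietal endoderm-like nuclei had 4.78 CPM, embryonic mesoderm-like 3.11 CPM and epiblast-like 2.82 CPM, and from the parietal class down to the lowest group, neighbours in the order did not differ beyond counting error. The Sfrp5 cluster had 3 UMIs, or 0.479 CPM (0.0988 to 1.40), and the visceral level over it was 7.22-fold (2.39 to 35.7).

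Over both Nr5a2 starts together, promoter accessibility was 1.34-fold that of the others (1.21 to 1.47), but the starts differed. At the upstream start (chr1:136960235-136961131) the visceral class had 444 counts, or 13.9 CPM, against 192, or 0.979 CPM, in the others (14.3-fold, 11.2 to 18.2). A peak 6.2 kb further upstream (chr1:136966188-136967072) was 17.4-fold more accessible (13.6 to 22.5), and a peak 31.7 kb upstream (chr1:136991722-136992620) 7.76-fold (5.45 to 11.1). In haemato-endothelial progenitor-like nuclei, where the RNA was highest, the upstream start had 12 counts, or 0.968 CPM. At the downstream start (chr1:136948786-136949679) all classes were open: it ranged from 7.41 CPM in ectoplacental cone and giant cell-like to 27.1 in epiblast-like nuclei, with 14.7 in the visceral class (0.719 times the others, 0.629 to 0.819). The haemato-endothelial class was highest, at 12.9 CPM, at a peak 2.1 kb past the downstream start (chr1:136947092-136947915), where the visceral class had 1.35.

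**Figure D4:**
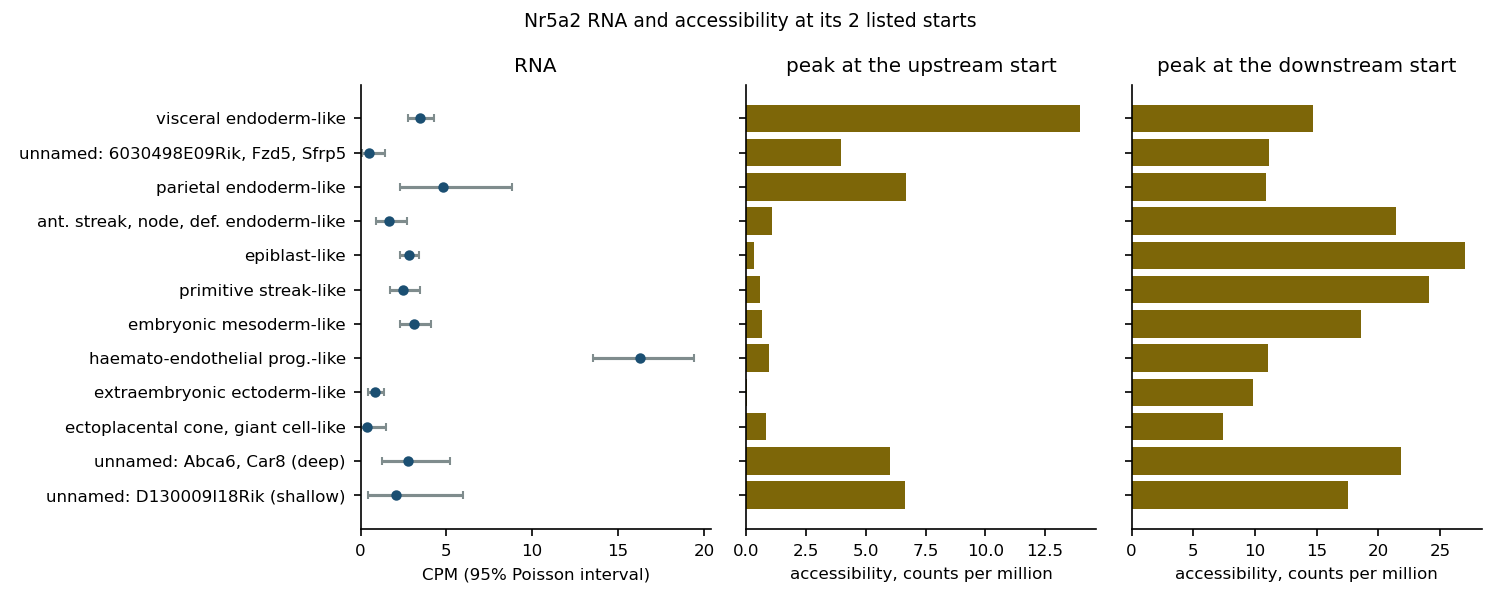
Nr5a2 RNA in CPM (left, bars are 95% Poisson intervals) and accessibility in CPM at the upstream start (middle) and the downstream start (right), in 12 groups of nuclei. The upstream start is most open in visceral endoderm-like nuclei (13.9 CPM) and the RNA is highest in haemato-endothelial progenitor-like nuclei (16.3 CPM).

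Over the 17 clusters, Nr5a2 RNA had a Pearson correlation of 0.13 with the upstream start peak, 0.00 with the peak 6.2 kb upstream and 0.09 with the downstream start peak, again as a description. Of the 20 Nr5a2 peaks, 4 were more and 11 less accessible in the visceral class, beside 12.7% and 40.7% of all peaks, and nothing is read from these counts. Among the visceral clusters, Nr5a2 RNA was 3.39 CPM in the Bmp6, 4.13 in the Kynu and 1.68 in the Fabp1 cluster, whose 4 UMIs left the widest fold open to 1 (2.46-fold, 0.875 to 9.56). Adding the Sfrp5 cluster to the visceral class gave a fold of 0.884 for Nr5a2. This was on the other side of 1 but inside the main interval of 0.874 to 1.42, which included 1.

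Onecut1 (ENSMUSG00000043013, plus strand, chr9:74861921-74889648) had sparse RNA, with 93 UMIs. Its highest level was in the parietal endoderm-like class, which mixed parietal and visceral markers, as described below. This class had 22 UMIs in 17 of 162 nuclei, or 10.5 CPM (6.60 to 15.9), which was 10.5-fold above the visceral class (5.62 to 19.3). The visceral class had 25 UMIs in 24 of 1813 nuclei, or 1.01 CPM (0.651 to 1.49), against 0.563 CPM in all others (1.79-fold, 1.08 to 2.87). That fold was past 2 under 7 of the other processing choices, which gave 2.05 to 5.02, among them the mean over nuclei (2.26) and a minimum of 2000 UMIs together with 2000 peak counts (2.15). The largest, 5.02 (3.27 to 7.73), came from the 1959 nuclei of the accessibility clusters led by the visceral endoderm list. These held 50 Onecut1 UMIs, against 43 in the rest. Among them were parietal endoderm-like nuclei of 2 of those clusters, with 19 and 3 of these UMIs.

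The parietal endoderm-like cluster was not uniform. Its parietal list (such as Lama1, Col4a1 and Sparc) summed to 10094 CPM, but its visceral list was at 5488 CPM. By accessibility, 108 of its 162 nuclei lay in a cluster led by Bmp6 and Klb, and these held 19 of the 22 Onecut1 UMIs (13.2 CPM) with a visceral list at 6645 CPM and a parietal list at 5894 CPM. A further 25 nuclei, in a cluster led by Gm13270 and Bmp6, held the other 3 UMIs. The 26 nuclei in an accessibility cluster led by Lama1 and Thbd, with the parietal list at 27097 CPM and the visceral list at 1159 CPM, held no Onecut1 UMI, which allows up to 8.87 CPM. Hnf4a followed the same split, at 78.0, 76.4 and 23.7 CPM. Within this cluster, Onecut1 UMIs were therefore counted in the nuclei whose summed RNA held both marker lists.

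The Onecut1 promoter peak (chr9:74861355-74862219) was about equally open throughout, from 10.8 CPM in ectoplacental cone and giant cell-like to 17.7 in epiblast-like nuclei, with 14.0 in the visceral class (0.861-fold, 0.749 to 0.987). Of its 18 peaks, 2 were more accessible in the visceral class and both were highest in parietal endoderm-like nuclei, the mixed class described above. The peak 17.6 kb upstream (chr9:74843914-74844763) had 14.8 CPM in the parietal class, 2.48 in the visceral class and 0.581 in all others than visceral (4.27-fold, 2.81 to 6.43). The peak 4.9 kb inside the gene (chr9:74866436-74867272) had 19.4, 13.3 and 4.50 CPM (2.95-fold, 2.50 to 3.47). A further 9 peaks were at least 2-fold less accessible, and both counts were near the shares over all peaks (12.7% more and 40.7% less accessible). The one with the most counts lay 7.7 kb upstream (chr9:74853745-74854665), with 71 counts, or 2.23 CPM, in the visceral class against 17.5 in the others (0.128 times, 0.0900 to 0.176) and 24.4 in primitive streak-like nuclei. Its nearest listed start was that of Gm28182, so the peak may belong to another gene.

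Hnf4g (ENSMUSG00000017688, plus strand, chr3:3508030-3659800) was close to undetected at this depth. The kept nuclei held 23 UMIs, of which 6 were in 4 visceral endoderm-like nuclei (0.242 CPM, 0.0886 to 0.526) and 17 in the others (0.141 CPM), too few for a comparison. Its start peak (chr3:3507595-3508550) was open at a low level everywhere, with 3.30 CPM in the visceral class and 3.78 in the others (0.873-fold, 0.645 to 1.16), and was highest in the Sfrp5 cluster at 6.03. A peak 32.8 kb past the highest listed start (chr3:3666470-3667339) was most open in epiblast-like nuclei, at 3.87 CPM, and had 3 counts in the visceral class. Of the 5 Hnf4g peaks, none was more and 3 were less accessible in the visceral class, too few to set apart from the 12.7% and 40.7% of all peaks.

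Set side by side, 2 of the 4 genes with enough RNA were called higher in the visceral class, and the same 2 genes, Hnf4a and Nr1h4, had the 2 promoter windows of the 5 that were called more accessible, beside 10.7% of all genes and 4.56% of all promoter windows. The Nr5a2 window, which was not called, summed both listed starts, and its upstream start alone was far more accessible in the class. Of the 79 peaks, 26 (32.9%) were more accessible, 25 (31.6%) less and 28 neither, beside 12.7% more and 40.7% less over all peaks. A larger share of one kind leaves less room for the other, so nothing is read from the share of less accessible peaks. These 26 were 14 of Hnf4a, 6 of Nr1h4, 4 of Nr5a2 and 2 of Onecut1. Between visceral clusters, the RNA of 2 genes (Nr1h4 and Nr5a2) reached 2-fold, both with intervals that included 1, beside 35.5% of all genes tested.

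The other genes of the network were described from lists, with counts and folds given as a description only, because genes other than the 5 could enter the clustering that made the classes. Of 28 other regulators, 24 had enough counts, of which 9 were higher, 3 lower and 12 neither in the visceral class, with a median fold of 1.06 beside 0.851 over all genes, of which 10.7% were higher and 25.4% lower. Among the higher ones, Nr2f2, an orphan nuclear receptor, was at 4.53-fold (23.6 against 5.21 CPM). The lowest were Rxrg, a retinoid X receptor, at 0.158 times and Cebpa, a hepatocyte factor, at 0.213 times. Among promoter windows of the list, 1 of 28 was more and 2 were less accessible, beside 4.56% and 20.6% of all promoter windows tested.

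All 14 plasma protein and lipoprotein genes with enough counts were higher, with a median of 7.36-fold, and 11 of 12 promoter windows tested were more accessible. Over all features the shares were 10.7% of genes and 4.56% of promoter windows, and the median RNA fold was 0.851. Apob, the backbone protein of secreted lipoproteins, was at 10.9-fold, Serpinf2, a plasmin inhibitor, at 9.82-fold and Fga, a fibrinogen chain, at 9.76-fold. The lowest were Apoa2 (4.14-fold) and Fabp1 (4.56-fold). Alb, the main plasma protein of the liver, had 5 UMIs in the class and 25 elsewhere, too few to compare. Apoc2, Fabp1 and Serpinf2 also lead the Fabp1 cluster.

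Of 14 bile acid genes known as targets of Nr1h4 or Nr5a2, 6 had enough counts, and 2 were higher, 1 lower and 3 neither, beside 10.7% of all genes higher and 25.4% lower. Abcb11, the bile salt export pump, had 133 UMIs in the visceral class and 23 in all others (28.1-fold, 18 to 45.9). Abcb4, a phospholipid exporter of bile, was 4.62-fold higher (3.77 to 5.66). Fgf15, the hormone that bile acids induce in the gut, was at 0.124 times (0.0965 to 0.157), Slc10a1 at 0.518 times and Baat at 0.898 times. Nr0b2, encoding the partner SHP, had 0 UMIs in the class and 9 elsewhere, and Cyp7a1, the rate-limiting enzyme of bile acid synthesis, had 0 and 1. Both genes had too few UMIs to compare.

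The genes most like each of the 5 were found by the Pearson correlation of log2(CPM + 1) over clusters, as a description. For Hnf4a over the 17 RNA clusters they were Clic6 (0.994), Soat2 (0.988) and Tpcn1 (0.987), of which Soat2 is a marker used to name the class. Over 19 accessibility clusters they included Myo6 (0.989) and Habp2 (0.988). For Nr1h4 they were Gm43449 (0.902), B3gat2 (0.898) and Gm31356 (0.892) by RNA clusters and Kcng1 (0.911), A1cf (0.904) and Kcnj13 (0.892) by accessibility clusters. For Nr5a2 they were Nhsl2 (0.864), Uggt2 (0.795) and Hspa12a (0.793), then Spats2l (0.828), Opcml (0.827) and Hdac7 (0.815). For Onecut1 they were Arntl (0.896), Fam129b (0.893) and Prkaa2 (0.886), then Zswim8 (0.914), Preb (0.869) and Arfgap1 (0.843). No gene named here was listed by both partitions for any of the 4. Hnf4g was left out for its low count.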

How the data were processed

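The deposited matrix holds whole-number counts, not normalized, as the authors' software wrote it: UMI counts per gene and counts per accessibility peak for each barcode, from Cell Ranger ARC 2.0.0 with mm10, per the submitters' processing notes. Settings of the alignment and of the peak calls: not given in the sources used here. Of nonzero peak values 86.40% were even, so intervals on accessibility used estimated fragments (the count divided by 2, rounded up). Barcodes under 1000 UMIs, 500 detected genes or 1000 peak counts, or over 20% mitochondrial UMIs, were dropped, leaving 13896. Scrublet in scanpy 1.11.5 called doublets and 1100 were removed. RNA clusters (2000 variable genes, 30 components, 15 neighbours, leidenalg 0.10.2, resolution 1) were made without the 5 genes, and accessibility clusters without their 79 peaks. Clusters were named from fixed marker lists with a scoring rule set after the data were seen. Counts were summed per group. Folds have exact conditional intervals, and the calculation was tested on simulated data. The 5 genes and the gene lists were chosen with earlier results of these data known. The genes named in the text are the 5, the 3 most alike by either partition, and the 3 highest and 2 lowest folds of each list, except for a few items that are not reported here. The peaks named are those at the listed starts and the 3 with the highest folds on at least 100 counts, and others were chosen after their values were seen, as were Hnf4aos and the split of the parietal endoderm-like nuclei. Promoter sequences are from RefSeq, where 4 of the 5 genes had one. Whether a peak is exonic or intronic was not analysed here.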

Additional observations from a re-analysis of the deposited data

How the results depend on the processing

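The 2 called promoter windows stayed at 2 under every alternative run, none of which split the listed starts of a gene. The count of genes called higher by RNA was 2 or 3, the third being Onecut1, and the count of more accessible peaks ranged from 19 (peaks within 20 kb only) to 28 (mean over nuclei), beside 26. The count of genes that reached 2-fold between visceral clusters was 2 and became 1 at a Leiden resolution of 0.5, with clusters of accessibility, with the mean over nuclei of per-nucleus CPM, and with the accessibility clusters led by the visceral endoderm list. It became 3 with doublet calls kept, at a resolution of 2 and with the Sfrp5 cluster added. The main run compared 3 visceral clusters. There were 2 at a resolution of 0.5 and with clusters of accessibility, and 4 with doublet calls kept and at a resolution of 2. With the accessibility clusters led by the visceral endoderm list there were 3. The cause was not tested. No value of a called gene or window changed direction. The visceral endoderm-like class held 891 to 2384 nuclei across these choices. Adding the Sfrp5 cluster, leaving out the unnamed clusters and using the accessibility clusters led by the visceral list were chosen after seeing the data. With 1 library per assay, no replicate could be left out, so the spread between pools of embryos is unknown. Depth limits Hnf4g, Nr1h4 and Onecut1, which had 23, 73 and 93 UMIs. No paired analysis was possible because the labels give 1 library per assay and no replicates.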
